A study of Mus musculus with 8 samples.

Results

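The comparison described here sets the substantia nigra of mice given an adeno-associated virus (AAV) for α-synuclein (α-Syn) against that of control mice (WT). Its members are 4 of the 8 RNA-seq libraries of the series, chosen by their labels: α-Syn replicates 1 and 2, with the treatment AAV-α-synuclein, and WT replicates 1 and 2, with the treatment control. All were male mice of the C57BL/6 strain. The other 4 libraries, 2 from mice given AKG (α-ketoglutarate, a TCA cycle intermediate) and 2 from mice given both AAV-α-synuclein and AKG, entered the fit only to estimate the spread between replicates. The labels give neither the species or form of α-synuclein, nor the promoter, dose, injection site, time after injection or age of the mice. They do not say whether WT mice received an empty vector, so an effect of the virus itself and one of α-synuclein cannot be told apart. Nor do they say whether the 2 libraries of a group came from separate mice, so p-values measure the spread between libraries, which may be technical.

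α-Synuclein is a small presynaptic protein that aggregates in Parkinson's disease, and vectors that overproduce it in the substantia nigra are used as a model of the disease. Dopamine neurons of this region make dopamine from tyrosine through tyrosine hydroxylase (Th) and aromatic amino acid decarboxylase (Ddc). They load it into vesicles through the vesicular monoamine transporter (Slc18a2) and take it back up through the dopamine transporter (Slc6a3). Dissected tissue also holds GABA neurons, glia and vessels, and a transcript can be lower because fewer cells make it or because each cell makes less. In these bulk samples the 2 cannot be told apart.

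Values are FPKM, fragments per kilobase of gene scaled to library size, and tests were run with limma on log2(FPKM + 1), which understates the change of low genes. A log2 difference is α-Syn minus WT, given with its standard error. Libraries held 16544190 to 19125423 reads, and the 13716 genes averaging 1 FPKM or more across the series were tested. WT replicate 1 stood apart from the rest: its mean Spearman correlation with the other 7 libraries was 0.926, against 0.971 to 0.975 for the others. Log2 differences and list medians are therefore also given without it, in a fit where the lone WT library is assumed to vary like the other groups.

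No gene passed an adjusted p of 0.05 (limma, Benjamini-Hochberg over all 13716 genes), which is 0.0% in each direction, and the smallest adjusted p was 0.229, for Th. At an unadjusted p under 0.05, 1271 genes (9.27%) were higher and 1034 (7.54%) lower in α-Syn, 2305 (16.8%) in all. Without WT replicate 1 no gene passed either, and the unadjusted counts were 416 higher (3.03%) and 329 lower (2.4%), 745 (5.43%) in all. Without WT replicate 2 instead, which leaves the library that stands apart as the lone WT library, 2008 genes were called higher and 1351 lower. Both α-Syn libraries lay above both WT libraries for 3605 genes (26.3%) and below both for 3788 (27.6%). The log2 difference was above 0 for 48.8% of genes and below 0 for 51.2%, or 46.7% and 53.3% without WT replicate 1. These shares are the background for the counts below, and nothing below passed the adjusted threshold in the 8-library fit or without WT replicate 1.

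The genes of the dopamine neuron's transmitter machinery were lower in α-Syn, with the dopamine transporter at the far end. Their promoters are printed first, from the RefSeq annotation of GRCm38.p6, because these genes define the transmitter of the neurons and Slc6a3 and Th have 2 of the 3 widest gaps on the lower side. Each runs from 250 bases before to 50 after a start site. Capitals mark a cyclic AMP response element (CRE, TGACGTCA) in Th and Slc18a2. In Ddc they mark the reverse complement of the NBRE (AAAGGTCA), the element bound by the orphan nuclear receptor Nr4a2, running into an overlapping reverse complement of TATAAA. The strand of each promoter is shown in the order 5′ to 3′ of its gene.
Th, chr7:142899946-142900245, minus strand: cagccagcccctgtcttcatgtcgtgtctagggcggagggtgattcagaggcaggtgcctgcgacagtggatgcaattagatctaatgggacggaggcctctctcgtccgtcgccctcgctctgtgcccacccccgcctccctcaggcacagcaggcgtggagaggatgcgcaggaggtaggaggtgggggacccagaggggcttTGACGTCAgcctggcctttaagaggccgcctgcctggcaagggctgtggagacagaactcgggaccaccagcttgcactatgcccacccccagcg
Ddc, chr11:11898095-11898394, minus strand: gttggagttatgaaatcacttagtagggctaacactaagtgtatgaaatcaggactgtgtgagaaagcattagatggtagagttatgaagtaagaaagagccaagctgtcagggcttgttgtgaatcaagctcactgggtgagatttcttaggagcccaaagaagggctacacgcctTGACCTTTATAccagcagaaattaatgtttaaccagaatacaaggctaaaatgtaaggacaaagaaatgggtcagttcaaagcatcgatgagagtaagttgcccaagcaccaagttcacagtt
Slc18a2, chr19:59260628-59260927, plus strand: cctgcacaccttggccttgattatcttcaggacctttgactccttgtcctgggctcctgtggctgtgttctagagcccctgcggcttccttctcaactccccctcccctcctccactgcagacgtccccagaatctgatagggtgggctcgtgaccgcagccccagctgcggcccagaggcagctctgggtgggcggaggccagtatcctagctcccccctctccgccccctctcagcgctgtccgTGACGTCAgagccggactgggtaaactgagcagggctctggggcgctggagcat
Slc6a3, chr13:73536497-73536796, plus strand: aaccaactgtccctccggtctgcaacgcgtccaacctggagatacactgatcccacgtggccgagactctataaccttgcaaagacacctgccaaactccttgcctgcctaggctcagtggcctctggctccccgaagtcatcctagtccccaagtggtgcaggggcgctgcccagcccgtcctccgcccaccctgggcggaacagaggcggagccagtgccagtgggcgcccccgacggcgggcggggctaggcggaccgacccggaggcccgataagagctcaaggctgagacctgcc

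On either strand, the CRE was found in 1.79% of 32851 promoters of this length, the NBRE in 1.51%, TAATCC (the core bound by bicoid-type factors such as Pitx3) in 7.06% and TATAAA in 13.6%. The printed Slc6a3 window held none of the 4. Among the 41 listed dopamine genes 31 matched the table, with 49 promoters, of which 2 held the CRE, 2 the NBRE, 2 TAATCC and 8 TATAAA. A match describes the letters of the window and shows no binding.

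Slc6a3 had 1.43 and 3.87 FPKM in α-Syn libraries, against 24.1 and 28.5 FPKM in WT libraries. The groups did not overlap, and the log2 difference was -2.99 ± 0.42 (limma adjusted p = 0.294), or -3.10 ± 0.53 without WT replicate 1 (limma adjusted p = 0.761). Th, whose enzyme sets the pace of dopamine synthesis, had 12.6 and 16.1 FPKM in α-Syn and 38.9 and 38.8 FPKM in WT. Both WT libraries were alike for Th, so its log2 difference was -1.38 with either fit (SE 0.13 with 8 libraries, 0.16 without WT replicate 1). Its limma adjusted p was 0.229 with 8 libraries and 0.646 without WT replicate 1.

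Ddc was measured at 9.74 and 10.6 FPKM in α-Syn and at 23.1 and 16.7 FPKM in WT, a log2 difference of -0.89 ± 0.17, or -0.67 ± 0.15 without WT replicate 1. Slc18a2 was measured at 7.28 and 8.30 FPKM in α-Syn and at 10.8 and 11.3 FPKM in WT, a log2 difference of -0.46 ± 0.14, or -0.49 ± 0.17. Neither gene's groups overlapped, and both had a limma adjusted p of 0.294. Gch1, which makes the cofactor of Th, was under the expression filter and had 0.702 and 0.716 FPKM in α-Syn and 2.88 and 1.16 FPKM in WT.

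Maoa, monoamine oxidase A, which breaks dopamine down in many cell types, lay closer to WT. It had 16.2 and 15.8 FPKM in α-Syn and 17.0 and 17.8 FPKM in WT, a log2 difference of -0.12 ± 0.09, or -0.15 ± 0.10 without WT replicate 1. Drd2, the dopamine autoreceptor, had 6.78 and 6.80 FPKM in α-Syn, between the 6.14 and 11 FPKM of the WT libraries. Of the 13 tested genes of dopamine synthesis, release and breakdown, 7 had both α-Syn libraries below both WT libraries and 0 had them above. Over all tested genes 27.6% lay below and 26.3% above. The list's median log2 difference was -0.25, or -0.49 without WT replicate 1, against -0.01 and -0.02 over all tested genes. With a smooth trend in gene length removed from each library it was -0.19, or -0.465 when WT replicate 1 was also left out.

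**Figure D1:**
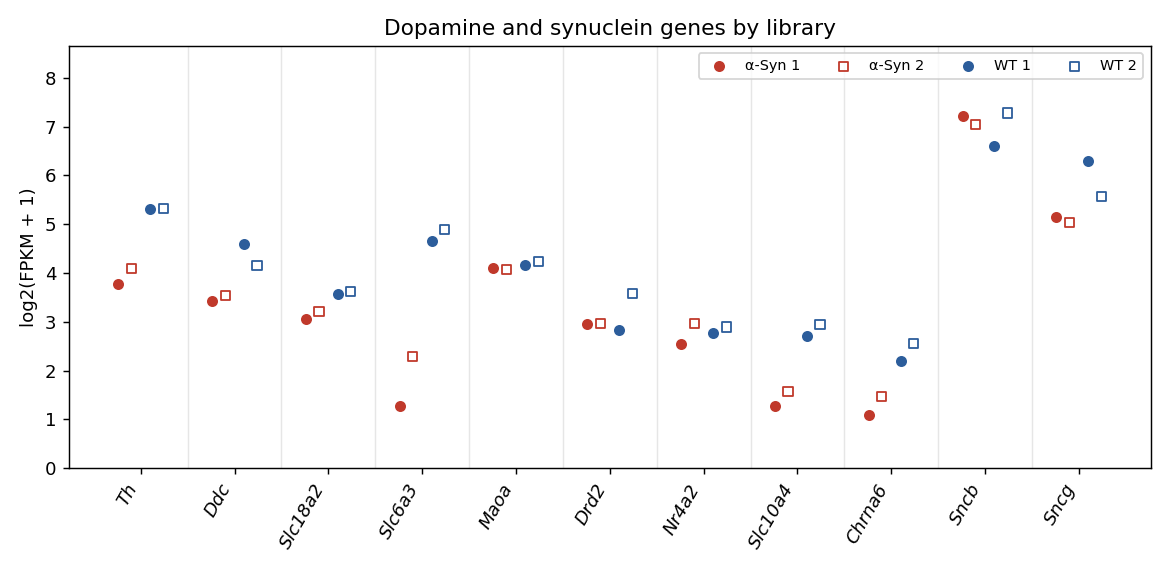
Dopamine and synuclein genes, as log2(FPKM + 1) in each α-Syn library (red) and each WT library (blue), with replicate 1 filled and replicate 2 open. Slc6a3 shows the widest separation of those plotted, at 1.43 and 3.87 FPKM in α-Syn against 24.1 and 28.5 FPKM in WT, while Drd2, Nr4a2 and Sncb overlap.

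The genes of the dopamine neuron identity list were divided. Slc10a4, a vesicular protein of monoamine and cholinergic neurons, had 1.42 and 1.96 FPKM in α-Syn and 5.51 and 6.66 FPKM in WT, a log2 difference of -1.40 ± 0.31. Chrna6, a nicotinic receptor subunit of dopamine terminals, had 1.12 and 1.76 FPKM in α-Syn and 3.60 and 4.85 FPKM in WT, a log2 difference of -1.10 ± 0.25. Without WT replicate 1 these differences were -1.52 ± 0.39 and -1.27 ± 0.30.

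Pitx3 and En1, transcription factors that dopamine neurons need for survival, were under the filter. Pitx3 had 0.071 and 0.27 FPKM in α-Syn and 1.15 and 1.07 FPKM in WT. En1 was listed at 0 and had 0.382 FPKM in the α-Syn libraries, against 1.42 and 1.37 FPKM in the WT libraries. For both, each α-Syn library lay below each WT library. Of the 9 identity genes under the filter, 3 (these 2 and Foxa2) had that order, 0 had the opposite one and 6 overlapped.

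Nr4a2, the nuclear receptor that switches on Th and Slc6a3 during development, had 4.83 and 6.78 FPKM in α-Syn and 5.83 and 6.43 FPKM in WT. Its groups overlapped, and its log2 difference was -0.08 ± 0.37, or -0.14 ± 0.47 without WT replicate 1. Over the 18 tested genes of dopamine neuron identity, 6 lay below WT in both libraries and 3 above, against 27.6% and 26.3% of all tested genes. The 3 above, named here after their values were seen, were Sox6, Dlk1 and Satb1. The median log2 difference was -0.16, or -0.18 without WT replicate 1, -0.14 with the length trend removed and -0.28 without α-Syn replicate 2. It was -0.11 without α-Syn replicate 1 and -0.056 without WT replicate 2, and changed sign to 0.024 among genes averaging 5 FPKM or more.

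The libraries from mice given AKG alone, whose labels name no α-synuclein vector, also had low levels of these genes. Th was at 10.7 and 10.4 FPKM in the AKG libraries and at 14.6 and 16.6 FPKM in the libraries given AAV-α-synuclein and AKG. Slc6a3 was at 0.801 and 0.615 FPKM in the AKG libraries and at 4.99 and 11.9 FPKM in those given both. So for Th all 6 libraries other than the WT pair lay below that pair, with or without the vector on the label.

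The genes of γ-synuclein and β-synuclein differed in pattern. Sncg, γ-synuclein, had 34.3 and 31.9 FPKM in α-Syn and 77.0 and 46.7 FPKM in WT, a log2 difference of -0.84 ± 0.26, or -0.48 ± 0.21 without WT replicate 1. Sncb, β-synuclein, overlapped, with 148 and 131 FPKM in α-Syn and 96.2 and 154 FPKM in WT.

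Genes of inherited Parkinson's disease went both ways, in shares near those of all tested genes. Of 19 tested, 6 (31.6%) lay above WT in both libraries and 4 (21%) below, against 26.3% and 27.6% of all tested genes. The list's median log2 difference was 0.08, or -0.02 without WT replicate 1 and 0.0078 with the length trend removed. Pink1, a kinase that marks damaged mitochondria, had 202 and 187 FPKM in α-Syn and 259 and 237 FPKM in WT, a log2 difference of -0.35 ± 0.16, or -0.29 ± 0.19 without WT replicate 1. Park7, a protein of the oxidative stress response, had a log2 difference of -0.41 ± 0.17, or -0.27 ± 0.18. Lrrk2, a kinase of vesicle traffic, had 1.48 and 1.93 FPKM in α-Syn and 1.13 and 1.22 FPKM in WT, a log2 difference of 0.31 ± 0.14, or 0.28 ± 0.17.

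The protein-coding genes with the widest gap between groups included Wnk2, Shank1, Hr and Cit on the higher side and Th, Slc6a3, Slc10a4, Chrna6 and Ddc on the lower side. Wnk2, a kinase, had 13.2 and 14.4 FPKM in α-Syn and 5.52 and 7.54 FPKM in WT, a log2 difference of 0.99 ± 0.18, or 0.79 ± 0.18 without WT replicate 1. Hr, a nuclear receptor corepressor, had 9.99 and 7.34 FPKM in α-Syn and 3.50 and 4.43 FPKM in WT, a log2 difference of 0.95 ± 0.18, or 0.82 ± 0.20. Itpr1, the calcium release channel of the endoplasmic reticulum, was not among the widest gaps but among the smallest unadjusted p. It had 11.2 and 10.9 FPKM in α-Syn and 5.46 and 7.42 FPKM in WT, a log2 difference of 0.71 ± 0.14, or 0.52 ± 0.10. All 3 had a limma adjusted p of 0.294 with 8 libraries.

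For most of these genes WT replicate 1 lay furthest from α-Syn. Cit, citron kinase, had 14.3 and 13 FPKM in α-Syn and 2.45 and 8.17 FPKM in WT, and its log2 difference was 1.38 ± 0.40, or 0.67 ± 0.14 without WT replicate 1. Ptar1, a prenyltransferase subunit, was an exception: it had 2.28 and 2.54 FPKM in α-Syn and 1.2 and 1.19 FPKM in WT, and its log2 difference was 0.64 with either fit. The same order, with WT replicate 1 lowest, held for Shank1, Grin2b, Tnrc18, Prrc2a, Plec, Lrp1, Prrc2b, Fryl, Map1a and Peg10.

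On the lower side, Gfap, the intermediate filament of astrocytes, had 45.3 and 44.2 FPKM in α-Syn and 157 and 75.7 FPKM in WT, a log2 difference of -1.26 ± 0.31, or -0.75 ± 0.17 without WT replicate 1. Myoc, a secreted protein that astrocytes also make, had 5.17 and 5.88 FPKM in α-Syn and 20 and 10.1 FPKM in WT, a log2 difference of -1.23 ± 0.32, or -0.76 ± 0.26. Rpa3, a subunit of the single-stranded DNA binding complex, had 4.34 and 4.77 FPKM in α-Syn and 7.34 and 8.43 FPKM in WT. Its log2 difference was -0.68 ± 0.11, or -0.76 ± 0.11, and unlike Gfap it was not moved towards WT by leaving out WT replicate 1.

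**Figure D2:**
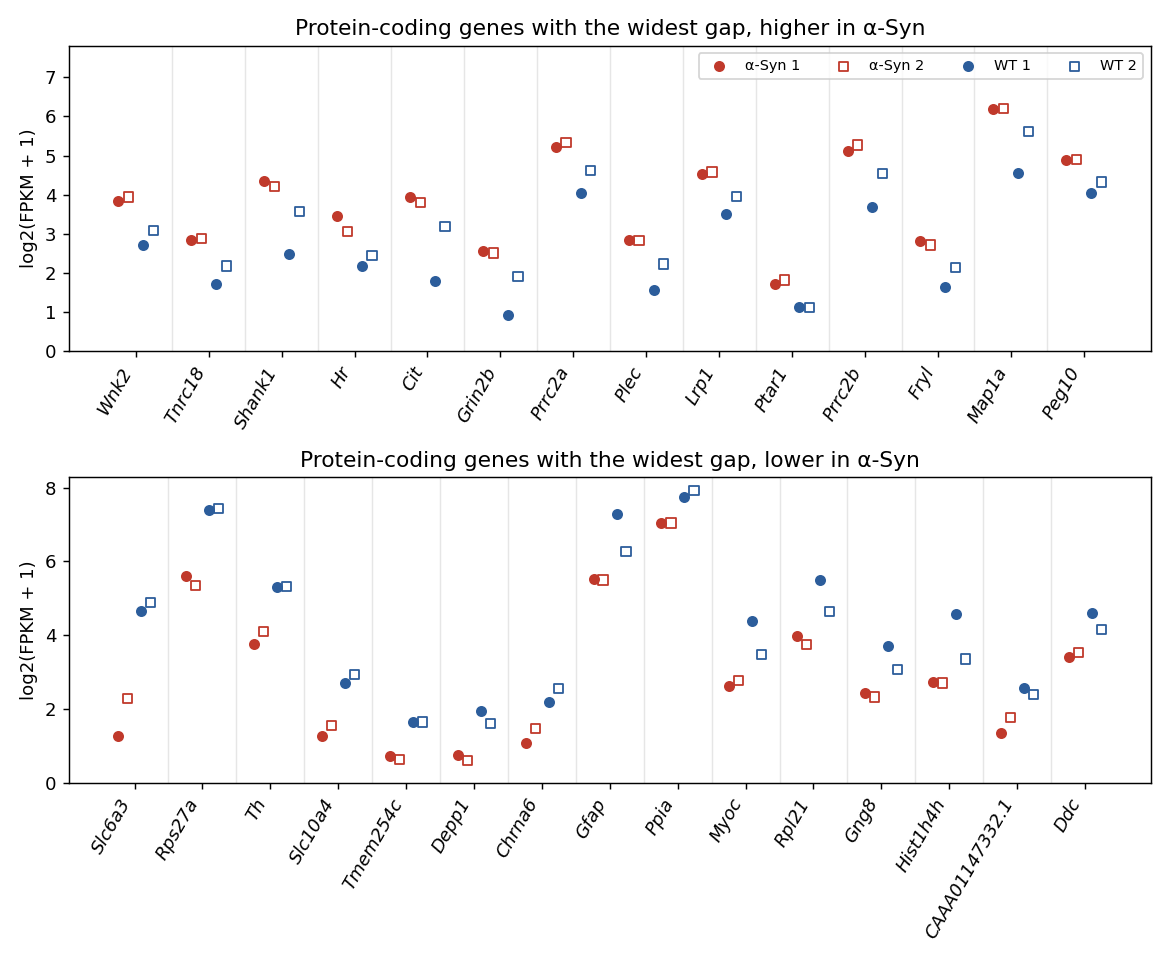
Protein-coding genes with the widest gap between groups in each direction, as log2(FPKM + 1) in each α-Syn library (red) and each WT library (blue), with replicate 1 filled and replicate 2 open. In the upper panel WT replicate 1 lies below WT replicate 2 for every gene plotted but Ptar1, where the WT libraries had 1.2 and 1.19 FPKM.

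Several of the lower genes have near-identical copies, between which reads can be split differently in each library. Rps27a had 1744 and 1340 reads in α-Syn and 6359 and 6260 in WT, while its pseudogene Rps27a-ps2 had 72 and 111 in α-Syn and 209 and 94 in WT. Ppia had 8489 and 7806 reads in α-Syn and 14394 and 15503 in WT, while its pseudogene Gm10123 had 4945 and 5342 in α-Syn and 5161 and 1775 in WT. Rpl21, Tmem254c and Gapdh have copies too, and the values of all these genes are uncertain. The copy Rpl21-ps15 had 1142 and 1076 reads in α-Syn and 1768 and 1258 in WT. Tmem254a and Tmem254b, copies of Tmem254c, had at most 1 read in any library.

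Over all biotypes, 32 genes (0.233%) had every α-Syn library more than 1.5-fold above every WT library and 39 (0.284%) more than 1.5-fold below. Only 10 of the 32 and 17 of the 39 were protein-coding. Of the 32, 21 were at most 400 bases long, as were 19 of the 39. The protein-coding genes among them had a median length of 11390 bases on the higher side and 2074 on the lower side, against 4401 for all tested protein-coding genes.

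The difference between the groups moved with gene length. In the 2744 shortest genes tested the median log2 difference was -0.28, and 47.6% of genes had both α-Syn libraries below both WT libraries. In the 2743 longest the median was 0.24, and 62.5% had them above. Without WT replicate 1 the medians were -0.16 and 0.13. Each library's deviation from the mean of all 8 correlated across genes with length, with a Spearman rho of 0.264 and 0.446 in α-Syn and -0.522 and -0.281 in WT. Genes are not independent replicates, and the list medians below are also given after a smooth trend in length was removed from each library.

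**Figure D3:**
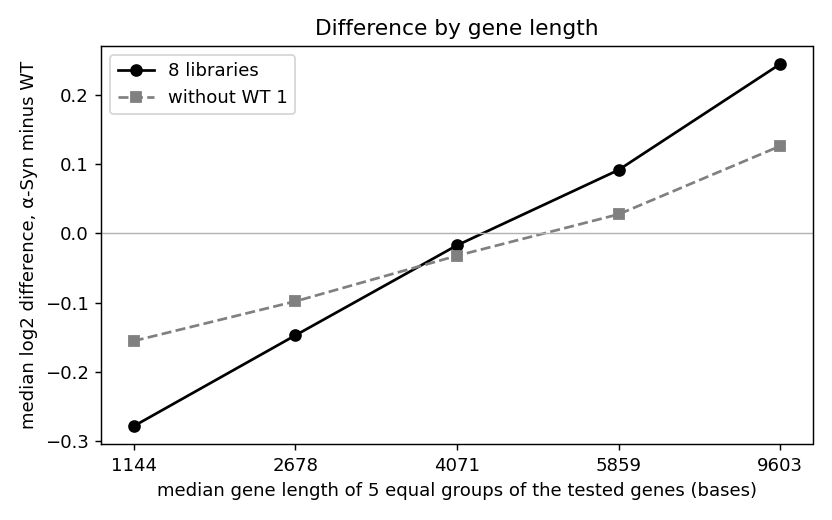
Median log2 difference, α-Syn minus WT, in 5 groups of tested genes of nearly equal size, in order of gene length, with all 8 libraries (black) and without WT replicate 1 (grey). The medians run from -0.28 in the shortest group to 0.24 in the longest with 8 libraries, and from -0.16 to 0.13 without WT replicate 1.

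Genes of the excitatory synapse and of ion channels were higher in α-Syn, and also in the libraries given AKG alone. The postsynaptic list had a mean log2(FPKM + 1) of 3.882 and 3.849 in α-Syn and 2.921 and 3.573 in WT. In AKG it was 3.983 and 3.89. For the channel list it was 3.548 and 3.513 in α-Syn, 2.446 and 3.222 in WT and 3.685 and 3.489 in AKG. Median gene length was 9816 bases for the postsynaptic list and 12612 for the channel list, against 4070 over all tested genes. For the postsynaptic density, the scaffold under excitatory synapses, 32 of 33 tested genes had both α-Syn libraries above both WT libraries. The share was 26.3% over all tested genes and 62.5% in the 2743 longest. The list's median log2 difference was 0.56, or 0.28 without WT replicate 1, 0.31 with the length trend removed and 0.14 with both. At an unadjusted p under 0.05 (limma, 8 libraries), 21 of the 33 genes were higher, against 9.27% of all tested genes.

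Shank1, a scaffold of that structure, had 19.3 and 17.4 FPKM in α-Syn and 4.63 and 11 FPKM in WT, a log2 difference of 1.24 ± 0.31, or 0.69 ± 0.14 without WT replicate 1. Grin2b, an NMDA receptor subunit, had 4.95 and 4.71 FPKM in α-Syn and 0.89 and 2.76 FPKM in WT, a log2 difference of 1.13 ± 0.30, or 0.63 ± 0.18. In both, WT replicate 1 was far below WT replicate 2. Dlg4, the scaffold PSD-95, had 35.7 and 32 FPKM in α-Syn and 21.0 and 29.9 FPKM in WT, a log2 difference of 0.42 ± 0.17, or 0.17 ± 0.11.

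The presynaptic list was less uniform. Of 33 tested genes 20 (60.6%) lay above WT in both libraries and 0 below, against 26.3% above for all tested genes. The list's median gene length was 7362 bases, and 62.5% of the 2743 longest genes tested lay above. Its median log2 difference was 0.46, or 0.13 without WT replicate 1, 0.28 with the length trend removed and 0.069 with both. Bsn, a scaffold of the active zone, had 9.14 and 8.43 FPKM in α-Syn and 2.23 and 6.04 FPKM in WT, a log2 difference of 1.04 ± 0.33, or 0.47 ± 0.15. Syn1, a synaptic vesicle protein, had a log2 difference of 0.93 ± 0.31, or 0.40 ± 0.14. Snap25, part of the fusion machinery, overlapped, with 214 and 195 FPKM in α-Syn and 142 and 211 FPKM in WT. Its log2 difference was 0.23 ± 0.19, or -0.049 ± 0.12 without WT replicate 1.

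Of 23 tested genes of calcium handling and ion channels, 21 lay above WT in both libraries and 0 below. Over all tested genes 26.3% lay above and 27.6% below, and of the 2743 longest 62.5% lay above. The list's median log2 difference was 0.72, or 0.33 without WT replicate 1, 0.36 with the length trend removed and 0.14 with both. Cacna1d, the pore of a calcium channel on which dopamine neurons rely for pacemaking, had 1.85 and 2.26 FPKM in α-Syn and 1.07 and 1.46 FPKM in WT, a log2 difference of 0.43 ± 0.16, or 0.31 ± 0.18.

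Markers of excitatory neurons of neighbouring regions were also higher in the 8-library fit. For thalamus and midbrain the median log2 difference of 14 tested genes was 0.41, or 0.07 without WT replicate 1, 0.29 with the length trend removed and 0.046 with both. For forebrain that of 11 was 0.40, or 0.28 without WT replicate 1, 0.29 with the length trend removed, 0.15 with both and 0.23 without α-Syn replicate 2. Prkcd, a kinase abundant in thalamus, had 88.0 and 54.6 FPKM in α-Syn and 15 and 45.0 FPKM in WT, a log2 difference of 1.38 ± 0.47, or 0.61 ± 0.30. Whether the pieces differed in region was not tested. The 10 tested GABA neuron markers had a median of 0.03, or -0.02 without WT replicate 1 and 0.0075 with the length trend removed. Gad1 and Gad2, the enzymes of GABA synthesis, overlapped between groups. Gad1 had a log2 difference of 0.01 ± 0.23, or -0.25 ± 0.23 without WT replicate 1, and Gad2 one of 0.34 ± 0.24, or -0.018 ± 0.16.

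Genes of protein synthesis and respiration were lower in α-Syn, and also in the libraries given AKG alone. The ribosomal list had a mean log2(FPKM + 1) of 6.643 and 6.482 in α-Syn and 7.522 and 6.863 in WT. In AKG it was 6.449 and 6.644. For the respiratory list it was 6.288 and 6.094 in α-Syn, 6.737 and 6.488 in WT and 6.111 and 6.378 in AKG. Median gene length was 1739 bases for the ribosomal list and 1737 for the respiratory list, both under the 4070 of all tested genes. Of 79 genes for cytosolic ribosomal proteins, 74 had both α-Syn libraries below both WT libraries and 0 had them above. Over all tested genes 27.6% lay below, and of the 2744 shortest 47.6% did. The list's median log2 difference was -0.60, or -0.29 without WT replicate 1, -0.42 with the length trend removed and -0.18 with both. At an unadjusted p under 0.05 (limma, 8 libraries), 61 of the 79 genes were lower, against 7.54% of all tested genes. Rps6, of the small subunit, had 229 FPKM in each α-Syn library, against 439 and 277 FPKM in the WT libraries, a log2 difference of -0.60 ± 0.22, or -0.27 ± 0.15 without WT replicate 1. Many ribosomal protein genes have pseudogene copies, so single values are uncertain.

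Of 74 nuclear genes for respiratory chain subunits, 72 lay below WT in both libraries. Over all tested genes 27.6% did, and of the 2744 shortest 47.6%. The list's median log2 difference was -0.43, or -0.29 without WT replicate 1, -0.21 with the length trend removed and -0.19 with both. Ndufb9, a subunit of complex I, had 51.9 and 46.5 FPKM in α-Syn and 81.5 and 74.7 FPKM in WT, a log2 difference of -0.66 ± 0.20, or -0.59 ± 0.24. Uqcrq, of complex III, had 80.3 and 61.7 FPKM in α-Syn and 128 and 102 FPKM in WT, a log2 difference of -0.69 ± 0.25, or -0.52 ± 0.29. The 13 genes of the mitochondrial genome itself had a median log2 difference of -0.12, or -0.0051 without WT replicate 1 and 0.15 with the length trend removed.

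Of 31 proteasome subunit genes, 28 lay below WT in both libraries, against 27.6% of all tested genes. The list's median log2 difference was -0.28, or -0.18 without WT replicate 1, -0.14 with the length trend removed and -0.11 with both. The lysosome list had 21 of 31 below, against the same 27.6%. Its median was -0.19, or -0.15 without WT replicate 1, -0.10 with the length trend removed and -0.094 with both. The list of chaperones and the unfolded protein response had 14 of 26 (53.8%) below, against the same 27.6%. Of the 2743 tested genes 1977 to 3346 bases long 44.2% lay below, and the list's median length was 2842 bases. Its median log2 difference was -0.21. That median was -0.16 without WT replicate 1, -0.076 with the length trend removed, -0.12 with both and -0.095 without α-Syn replicate 2. Xbp1, a transcription factor of the unfolded protein response, had 33.1 and 35.2 FPKM in α-Syn and 50.9 and 45.1 FPKM in WT, a log2 difference of -0.48 ± 0.11, or -0.39 ± 0.10. Autophagy genes were near the background, with 8 of 26 (30.8%) above WT in both libraries and 8 (30.8%) below, against 26.3% and 27.6% of all tested genes. The list's median was 0.01, or -0.0035 without WT replicate 1 and -0.025 with the length trend removed. Sqstm1, an autophagy receptor, had a log2 difference of -0.26 ± 0.11, or -0.24 ± 0.12 without WT replicate 1. Ulk1, a kinase that starts autophagy, had one of 0.51 ± 0.16, or 0.34 ± 0.17.

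**Figure D4:**
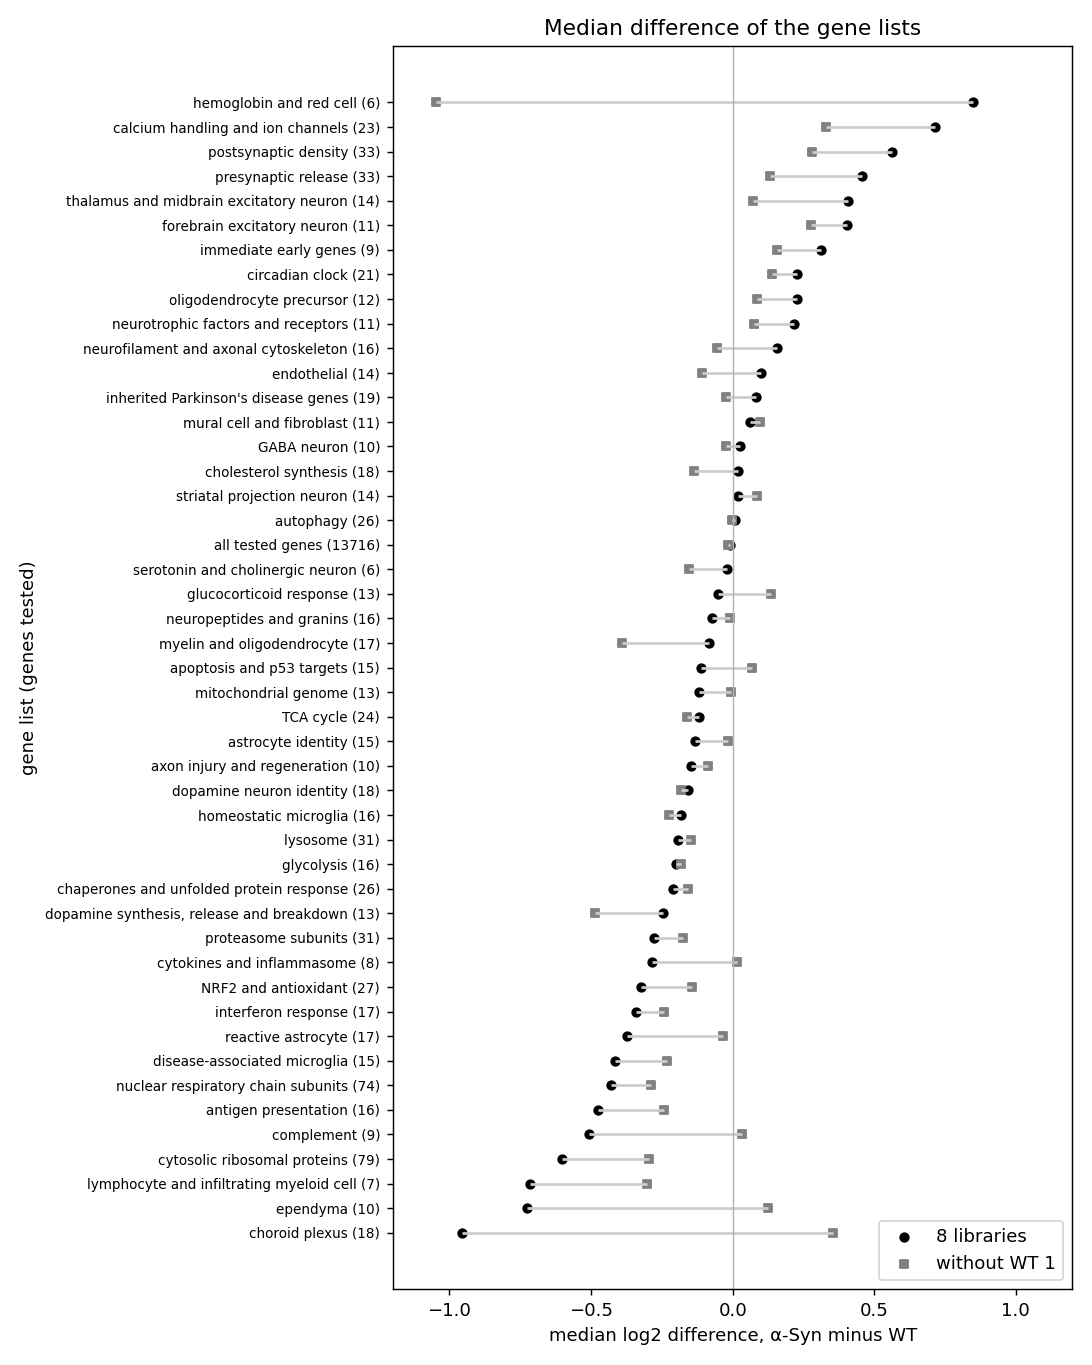
Median log2 difference, α-Syn minus WT, of the gene lists, with all 8 libraries (black) and without WT replicate 1 (grey), and the number of tested genes in brackets. Ion channel and postsynaptic lists lie at 0.72 and 0.56 with 8 libraries and at 0.33 and 0.28 without WT replicate 1. The choroid plexus, ependyma and hemoglobin lists change sign, as do others such as the complement and endothelial lists.

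Many microglial genes were lower in α-Syn. Of 15 tested genes of disease-associated microglia, a state described around plaques and dying neurons, 13 lay below WT in both libraries. Over all tested genes 27.6% did. The list's median log2 difference was -0.42, or -0.23 without WT replicate 1, -0.25 with the length trend removed and -0.15 with both. The list's mean log2(FPKM + 1) was 5.125 and 5.023 in α-Syn, 5.644 and 5.354 in WT and 5.084 and 5.211 in the libraries given AKG alone. Lyz2, lysozyme, had 8.73 and 6.09 FPKM in α-Syn and 26.3 and 12.7 FPKM in WT, a log2 difference of -1.22 ± 0.32, or -0.72 ± 0.22. Tyrobp, a signalling adaptor of microglia, had 17.4 and 12.9 FPKM in α-Syn and 30.9 and 23.2 FPKM in WT, a log2 difference of -0.80 ± 0.26, or -0.60 ± 0.30.

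The complement gene C1qb, which microglia make, had 56.8 and 40.8 FPKM in α-Syn and 97.1 and 74.7 FPKM in WT, a log2 difference of -0.81 ± 0.25, or -0.62 ± 0.28. The complement list as a whole had a median of -0.51 with 8 libraries, 0.03 without WT replicate 1 and -0.41 with the length trend removed. P2ry12, a receptor of resting microglia, overlapped, with 8.81 and 9.07 FPKM in α-Syn and 8.58 and 10.6 FPKM in WT. Of the 16 tested genes of resting microglia, 9 (56.2%) lay below WT in both libraries and 1 above, against 27.6% and 26.3% of all tested genes. The list's median log2 difference was -0.18, or -0.23 without WT replicate 1, -0.099 with the length trend removed and -0.15 with both. Of 17 tested interferon response genes, 9 (52.9%) lay below WT in both libraries and 1 above, against 27.6% and 26.3% of all tested genes. Of the 2743 tested genes 1977 to 3346 bases long 44.2% lay below, and the list's median length was 2656 bases. The list's median log2 difference was -0.34, or -0.24 without WT replicate 1, -0.29 with the length trend removed and -0.19 without α-Syn replicate 1. Of the 24 listed genes of lymphocytes and infiltrating myeloid cells, 17 were under the filter, with at most 0.533 FPKM in the α-Syn and WT libraries, among them Cd3e, Cd8a and Cd79a. The 7 tested had a median log2 difference of -0.72, or -0.30 without WT replicate 1 and -0.56 with the length trend removed. The summed level of the list was 26 and 40.9 FPKM in α-Syn and 178 and 42.5 FPKM in WT, so WT replicate 1 was the highest.

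For astrocytes, the reactive list had a median log2 difference of -0.37 with 8 libraries, -0.036 without WT replicate 1 and -0.28 with the length trend removed. Serpina3n, a protease inhibitor of reactive astrocytes, had 20.1 and 22 FPKM in α-Syn, around the 21.6 FPKM of WT replicate 2 and below the 38.2 FPKM of WT replicate 1. Of 15 tested astrocyte identity genes, 3 (20%) lay above WT in both libraries, 3 (20%) below and 9 overlapped, against 26.3% above and 27.6% below for all tested genes. The list's median log2 difference was -0.13, or -0.017 without WT replicate 1 and -0.080 with the length trend removed. Among them, Slc1a2, the main glutamate transporter, lay above WT. It had 88.5 and 86.8 FPKM in α-Syn and 42.5 and 66.3 FPKM in WT, a log2 difference of 0.71 ± 0.22, or 0.40 ± 0.16. Aqp4, the water channel of astrocyte endfeet, had a log2 difference of -0.32 ± 0.15, or -0.43 ± 0.16.

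The 12 tested genes of oligodendrocyte precursors had 7 (58.3%) above WT in both libraries and 1 below, against 62.5% above in the longest genes. Their median log2 difference was 0.23, or 0.085 without WT replicate 1 and -0.0043 with the length trend removed, and their median length was 8218 bases. Among them, Cspg4 (the proteoglycan NG2, also made by pericytes) had 2.28 and 2.14 FPKM in α-Syn and 1.18 and 1.39 FPKM in WT, a log2 difference of 0.49 ± 0.12, or 0.43 ± 0.14. Of 11 tested genes of mural cells and fibroblasts, 3 (27.3%) lay above WT in both libraries and 0 below, against 26.3% and 27.6% of all tested genes. The list's median was 0.06, or 0.096 without WT replicate 1 and 0.087 with the length trend removed. Pdgfrb, a receptor of pericytes, was 1 of the 3 and had 5.15 and 5.24 FPKM in α-Syn and 3.14 and 3.72 FPKM in WT, a log2 difference of 0.49 ± 0.12, or 0.39 ± 0.13. Acta2, the actin of smooth muscle, and Dcn, a matrix protein of fibroblasts, overlapped between groups, with log2 differences of -0.40 ± 0.19 and -0.71 ± 0.41, or -0.14 ± 0.15 and 0.0016 ± 0.19 without WT replicate 1.

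Myelin genes depended on which WT library was used. The 17 tested genes had a median log2 difference of -0.08 with 8 libraries, and all 17 were below WT, with a median of -0.39, without WT replicate 1. With the length trend removed the median was -0.0049, and with both changes it was -0.41. Mog, a surface protein of myelin, had 57.3 and 48.3 FPKM in α-Syn, against 54.9 and 69.3 FPKM in WT, so its groups overlapped, and its log2 difference was -0.23 ± 0.26, or -0.39 ± 0.30 without WT replicate 1.

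The lists for the choroid plexus, the ependyma and red cells changed sign when WT replicate 1 was left out. They were not the only ones. Among others, so did complement (-0.51 and 0.03), cytokines and inflammasome (-0.28 and 0.01), endothelial (0.10 and -0.11) and glucocorticoid response (-0.05 and 0.13). For the choroid plexus, the median log2 difference of 18 tested genes was -0.96 with 8 libraries and 0.35 without WT replicate 1. Ttr, transthyretin, which the choroid plexus makes in great amounts, had 44.0 and 1959 FPKM in α-Syn and 8778 and 435 FPKM in WT. The ependyma list, of the cells that line the ventricles, had medians of -0.72 and 0.13, and its ciliary regulator Foxj1 had 17.0 and 14.9 FPKM in α-Syn and 42.4 and 15.5 FPKM in WT. The hemoglobin and red cell list had medians of 0.85 and -1.05, and Hbb-bs had 121 and 88.7 FPKM in α-Syn and 5.53 and 212 FPKM in WT. WT replicate 1 thus had the highest Ttr and Foxj1 and the lowest Hbb-bs of the 4 libraries. The part of ventricular tissue or blood in the other results was not tested.

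**Figure D5:**
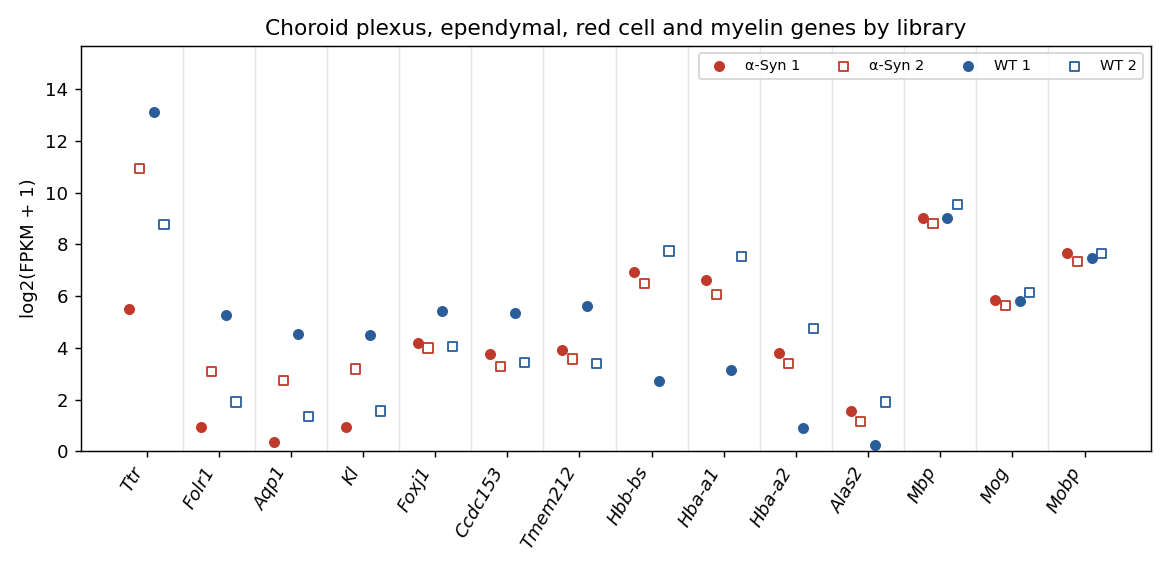
Genes of the choroid plexus, ependyma, red cells and myelin, as log2(FPKM + 1) in each α-Syn library (red) and each WT library (blue), with replicate 1 filled and replicate 2 open. WT replicate 1 is highest for Ttr and Foxj1 and lowest for Hbb-bs, and the 2 α-Syn libraries differ for Ttr (44.0 and 1959 FPKM).

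In metabolism, 14 of 24 tested genes of the TCA cycle and 9 of 16 of glycolysis lay below WT in both libraries. Over all tested genes 27.6% did. The median log2 differences were -0.12 and -0.20. Without WT replicate 1 these were -0.16 and -0.18, with the length trend removed -0.082 and -0.17, and without α-Syn replicate 2 -0.084 and -0.11. Ldha, lactate dehydrogenase A, had 72.0 and 66.2 FPKM in α-Syn and 106 and 89.0 FPKM in WT, a log2 difference of -0.49 ± 0.15, or -0.36 ± 0.16. Sod1, which removes superoxide, had 63.8 and 55.5 FPKM in α-Syn and 97.8 and 76.7 FPKM in WT, a log2 difference of -0.53 ± 0.16, or -0.36 ± 0.15. Both genes lay below WT in both α-Syn libraries.

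Of 21 clock genes, 13 lay above WT in both libraries and 2 below, against 26.3% and 27.6% of all tested genes. The list's median log2 difference was 0.23, or 0.14 without WT replicate 1, 0.10 with the length trend removed and 0.067 with both. Nr1d1, a repressor of the clock, had 30.4 and 30.0 FPKM in α-Syn and 14.2 and 24 FPKM in WT, a log2 difference of 0.68 ± 0.23, or 0.32 ± 0.15. The immediate early gene Egr1 had 5.16 and 4.61 FPKM in α-Syn and 1.65 and 3.97 FPKM in WT, a log2 difference of 0.70 ± 0.27, or 0.24 ± 0.14. Of 9 tested immediate early genes, 7 (77.8%) lay above WT in both libraries, 1 below and 1 overlapped, against 26.3% above for all tested genes. The list's median log2 difference was 0.31, or 0.16 without WT replicate 1 and 0.37 with the length trend removed. The labels give no time of day for the dissections.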

How the data were processed

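Column-purified total RNA was made into libraries with a SMARTER mRNA kit, per the labels' protocols. The authors deposited 1 table of FPKM values for 54532 genes, with gene lengths and coordinates, per the file headers. The submitters' processing notes name GRCm38 and mm10, and the aligner and counting tool were not given in the sources, nor whether strand was used. Whole reads were recovered from the FPKM for 100% of values (within 0.01 of a read). The authors' library sizes were 0.984 to 1.05 times the read totals, by a rule the sources do not give.

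Values of genes averaging 1 FPKM or more were put on log2(FPKM + 1), and limma 3.58.1 (R 4.3.3; lmFit, eBayes with trend) was run over 4 groups of 2 libraries, with Benjamini-Hochberg adjustment. The script was tested on simulated data. An exact two-sided permutation test of 2 against 2 cannot go below p = 0.333, so none was used. Replicates of one group differed by more than sampling noise. Tables and figures were made with Python 3.11.15, and promoters came from RefSeq.

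Genes were named by role, by the widest gap between groups (15 per direction) and by the smallest p (5 per direction in each of the 2 fits), and part of those named by role is printed. A few genes are not reported here. The members and the 47 gene lists were chosen with earlier results of these data known. Alternatives left out each library and changed the filter, pseudocount, scaling, length trend, block and model, and 3 were added after seeing the data.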

Additional observations from a re-analysis of the deposited data

How the results depend on the processing

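Over the 24 alternative settings, the count of genes called in α-Syn against WT was 0 except without WT replicate 2 and with no filter on low values, where 5 genes of 30505 were called; leaving out 1 library at a time gave 0 to 3359. At an unadjusted p under 0.05 the main fit had 2305 genes, the limma-voom fit on recovered reads called 0 after adjustment, and the fit on the 2 groups alone had 655 higher and 577 lower. Non-overlapping genes stayed within 1.5 times the main counts of 3605 and 3788 under the scalings tried and with the length trend removed. The naming rule gave 201 tested genes, and 79 of them changed sign in at least 1 setting; 11 of the settings leave every estimate as it is and cannot change a sign. Without WT replicate 1, 42 of the 201 (20.9%) changed sign, against 20.4% of all tested genes. With the length trend removed 26 did (12.9%), against 22.5% of all, and with both 56 (27.9%), against 31.1%. The genes printed with values are a part of the 201 chosen with their signs known, so how many of them keep their sign says nothing of stability. Quantile normalization gave 0.17 for Mobp and 0.035 for Atp5b. Removing the length trend gave 0.013 for Mog, 0.070 for P2ry12, -0.12 for Slc1a3 and -0.17 for Gad1, with the replicate block or without it. Leaving out libraries 1 at a time gave ranges of -0.50 to 0.17 for C3, -0.62 to 0.13 for Drd2, -1.36 to 0.037 for Foxj1, -0.25 to 0.27 for Gad1, -0.018 to 0.69 for Gad2, -1.03 to 4.001 for Hbb-bs, -0.84 to 0.52 for Lcn2, -0.20 to 0.11 for Mobp, -0.29 to 0.13 for Nr4a2, -0.22 to 0.053 for P2ry12, -1.42 to 0.0016 for Dcn, -0.049 to 0.52 for Snap25, -0.14 to 0.53 for Sncb and -5.44 to 0.0026 for Ttr. For these changes the cause was not tested. The labels do not say that replicate numbers pair the libraries, and the correlation of same-numbered deviations was -0.121 between α-Syn and WT and 0.34 between the 2 AKG groups, with the other pairs of groups between -0.322 and -0.0218. The replicate block called 0 genes and had 939 higher and 680 lower at an unadjusted p under 0.05. Of the 47 lists and the set of all genes, 22 medians moved by more than the replicate spread without WT replicate 1 and 16 with the length trend removed. That spread includes WT replicate 1 itself, so a list in which this library lies apart can count as unmoved. The choroid plexus list does, although its median went from -0.96 to 0.35 without WT replicate 1. The count that follows uses another rule and cannot be set against these. Without 1 of the α-Syn libraries, 26 of the 47 list medians moved by over 1.5 times or changed sign, among them choroid plexus (-0.057 without replicate 1, -1.77 without replicate 2), myelin (-0.20 and 0.026) and GABA neurons (-0.037 and 0.15). Pairs of libraries limit every comparison here.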
